A study of Mus musculus with 20 samples.

Results

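The trypsin-like, transmembrane and kallikrein serine proteases of the mouse uterus were taken by gene symbol: Prss, Tmprss and Klk genes with a number, together with St14 and Hpn and without Prss8, Prss28 and Prss29, which gave 68 of the 45777 genes in the table. They comprised 36 Prss genes, 19 transmembrane proteases (the Tmprss genes, St14 and Hpn) and 13 kallikreins. All of them matched an entry of the GRCm38.p6 gene annotation, 17 on chromosome 7, 11 on chromosome 9, 9 on chromosome 17 and 7 on chromosome 5. RNA was extracted from uteri collected at 18:00 on day 3.5 after mating, shortly before implantation, from 20 wild-type B6D2F1 females aged 8 to 12 weeks, with 5 mice in each of 4 groups. Control mice were untreated. In the implantation failure (IF) group, RU486, an antagonist of the progesterone and glucocorticoid receptors, was injected under the skin that morning. PBMC mice received RU486 in the same way after an injection of cultured peripheral blood mononuclear cells of non-pregnant mice into the uterus on day 1.5, and PBMC-hCG mice differed only in that the cells had been cultured with human chorionic gonadotropin (hCG). All groups except the control therefore carried RU486. A group injected with medium alone was not analysed here, so the cells cannot be told apart from the injection in any comparison of a cell-treated group with IF or control.

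Serine proteases of this fold cut peptide chains with a catalytic triad of histidine, aspartate and serine, and most are made as inactive precursors that another protease must cut. The transmembrane members sit on the surface of epithelial cells, where they activate growth factors, receptors and sodium channels and are held in check by the Kunitz inhibitors Spint1 and Spint2. Kallikreins are secreted and are best known for releasing kinins and for shedding of skin cells, while several Prss genes are active in the pancreas, in the testis or in mast cells. In the uterus, proteases of the implantation period are made by glands and lining epithelium and released into the lumen.

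Levels are given in TPM, a gene's transcripts as a share of all transcripts of the library, which is scaled for transcript length and can be compared between genes. Since TPM gives every library the same total by construction, the depth of sequencing cannot be read from the table, and values carry no interval for counting error. The labelled tissue was checked with markers: all 9 epithelial, all 6 stromal and all 5 myometrial markers were above 0 in every library, and the testis and sperm list summed to at most 0.219 TPM in any library. One control library, replicate 2, stood apart, with a median correlation of 0.963 with the other control libraries against 0.980 to 0.990 for all other libraries in their groups. Control replicate 2 also had the lowest stromal marker sum of the control libraries, at 4053 TPM against 7090 to 7522 TPM. Its myometrial marker sum was the lowest of them too, at 3449 TPM against 4725 to 7583 TPM. The labels call the libraries replicates; the p-values below measure the spread between these mice. In whole tissue, fewer cells of a type and less RNA per cell cannot be told apart.

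Of the 68 proteases, 23 were listed at 0 in every library (33.8%, against 32.9% of all genes), 13 were above 0 in 1 to 5 libraries, 14 in 6 to 19 libraries and 18 in all 20. Only the last 18 entered the fit of group differences. The genes at 0 included the pancreatic trypsin genes Prss1 and Prss3, enteropeptidase (Tmprss15), which activates trypsinogen in the gut, and 6 of the 13 kallikreins. Each library held between 26 and 33 proteases above 0. Their summed level was 293 to 479 TPM in control mice, with a median of 306, 418 to 598 TPM with a median of 531 in IF mice, 365 to 485 TPM with a median of 404 in PBMC mice and 351 to 488 TPM with a median of 388 in PBMC-hCG mice. Control replicate 2, the library that stood apart, had the highest control sum and was the only control mouse inside the IF range. Prss23, Tmprss2, St14, Tmprss4 and Prss12 together made up 78.3% to 91.3% of these sums in single mice.

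**Figure D1:**
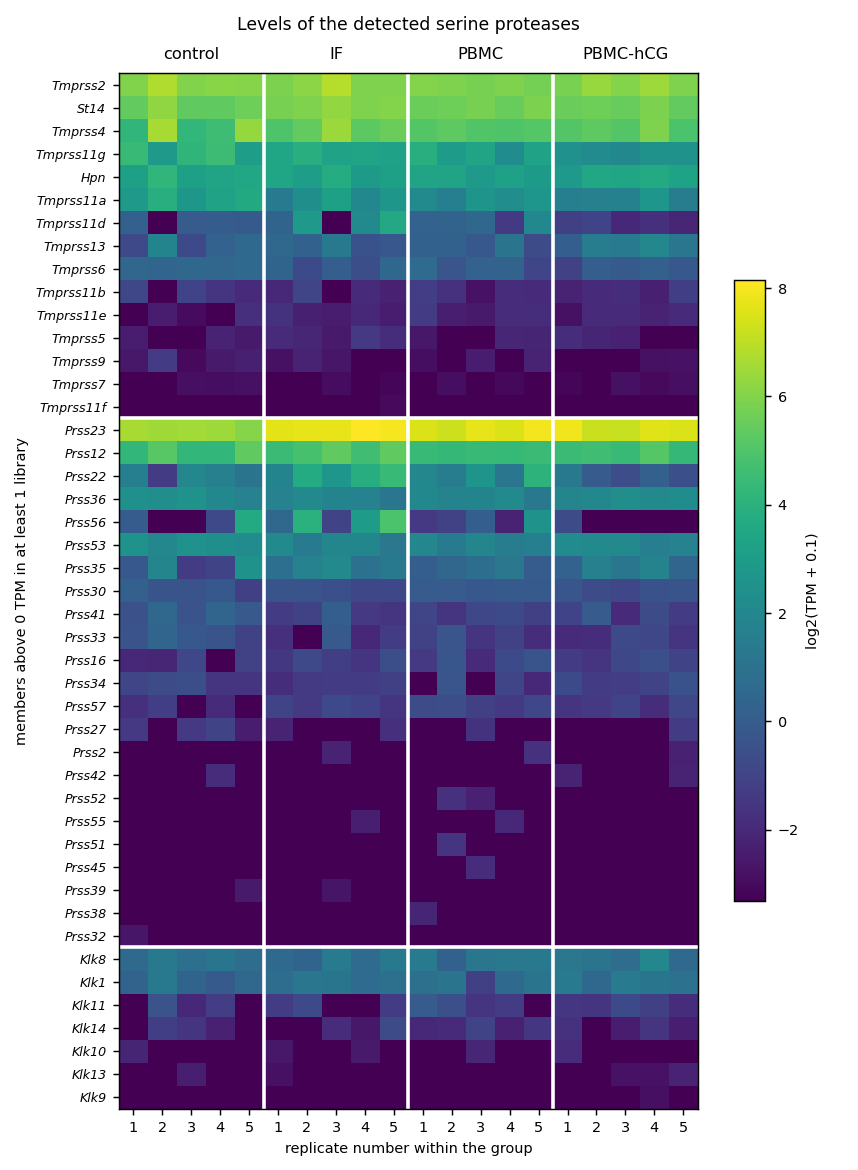
Heat map of log2(TPM + 0.1) for the 45 proteases above 0 TPM in at least 1 library (rows, in the order transmembrane, Prss and Klk, each by mean level) in 20 mice (columns, 5 per group). Prss23, Tmprss2, St14 and Tmprss4 are bright in all groups, most Klk rows are dark, and Prss22, Prss56 and Tmprss11d are bright in single mice of the IF and PBMC groups. Prss56 is also bright in control replicate 5.

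Among transmembrane proteases, Tmprss2, known from the prostate and from the airway, where it cuts surface proteins of respiratory viruses, had the highest level. In replicates 1 to 5 it was at 63.2, 109.6, 62.3, 68.3 and 67.1 TPM in the control group, at 58.9, 71.6, 117.1, 60.9 and 60.2 TPM in the IF group, at 63.6, 61.6, 55.3, 61.5 and 53.9 TPM in the PBMC group and at 57.8, 83.5, 65.2, 88.7 and 60.2 TPM in the PBMC-hCG group. Means were 74.1 ± 20.02, 73.7 ± 24.7, 59.2 ± 4.29 and 71.1 ± 14.1 TPM (± SD, n = 5 each, here and below), and all groups overlapped, with 1 high mouse each in the control and IF groups. No group difference of Tmprss2 passed the test, and its log2 difference between IF and control mice was -0.03 with a 95% interval of -0.41 to 0.36. Tmprss4, which can activate the epithelial sodium channel, was at 18.6, 98.5, 18.9, 23.6 and 79.7 TPM in control replicates 1 to 5. The IF mice were at 31.8, 42.2, 85.9, 38.5 and 46.1 TPM, PBMC mice at 33.4, 38.9, 32.1, 31.4 and 35.2 TPM and PBMC-hCG mice at 33.9, 39.2, 34.1, 61.4 and 29.7 TPM. Control replicates 2 and 5 were above all cell-treated mice and the other control mice below all of them, so the groups overlapped and no difference passed.

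St14, or matriptase, which activates prostasin, hepatocyte growth factor and protease-activated receptor 2, was at 42.3, 74.4, 40.8, 40.6 and 48.5 TPM in control mice and at 55.2, 59.8, 76.7, 61.1 and 64.2 TPM in IF mice. PBMC mice were at 46.7, 49.0, 55.4, 44.1 and 59.8 TPM and PBMC-hCG mice at 45.8, 49.1, 44.5, 59.7 and 42.0 TPM. Every IF mouse was above every control mouse except replicate 2. The IF against control difference was 0.39 ± 0.15 on the log2 scale (limma, ± SE, adjusted p = 0.0587), and it passed the test without control replicate 2 (0.55, adjusted p = 0.00118). The PBMC-hCG against IF difference was -0.40 (adjusted p = 0.0679). Hepsin (Hpn), an activator of hepatocyte growth factor known from the liver, was at 9.15, 18.8, 9.04, 10.1 and 11.5 TPM in control mice, at 11.1, 8.37, 13.5, 7.39 and 9.12 TPM in IF mice, at 10.2, 10.2, 7.05, 9.32 and 7.54 TPM in PBMC mice and at 7.35, 11.8, 10.5, 12.7 and 9.88 TPM in PBMC-hCG mice. The highest Hpn value was again that of control replicate 2, all groups overlapped and no difference passed the test.

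Tmprss6, which restrains hepcidin in the liver, was at 1.26, 1.24, 1.32, 1.29 and 1.397 TPM in control mice, at 1.202, 0.488, 0.989, 0.571 and 1.35 TPM in IF mice, at 1.49, 0.718, 1.11, 1.15 and 0.419 TPM in PBMC mice and at 0.358, 0.974, 0.854, 1.05 and 0.806 TPM in PBMC-hCG mice. Every PBMC-hCG mouse was below every control mouse, but the difference of -0.69 did not pass the test (adjusted p = 0.0926), unless values were quantile normalised (-0.84, adjusted p = 0.0332) or only these groups were fitted (adjusted p = 0.0453). Tmprss13, a protease of the skin barrier, was at 0.475, 3.56, 0.479, 1.12 and 1.43 TPM in control mice, at 1.34, 1.06, 2.35, 0.646 and 0.763 TPM in IF mice, at 1.08, 1.07, 0.788, 2.03 and 0.533 TPM in PBMC mice and at 0.987, 2.85, 2.55, 3.86 and 2.196 TPM in PBMC-hCG mice. The PBMC-hCG mice were mostly the higher ones, with overlap in every comparison. The difference between PBMC-hCG and control mice was 1.02 (adjusted p = 0.112), and without control replicate 2 it was 1.43 (adjusted p = 0.0136) and without PBMC-hCG replicate 1 it was 1.30 (adjusted p = 0.0458).

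The Tmprss11 genes, relatives of the airway trypsin-like protease of stratified epithelia, lie together on chromosome 5, and 3 of them reached a group median of 1 TPM. Tmprss11a (chr5:86410410-86469175, GRCm38) and Tmprss11g (chr5:86485877-86518600) are neighbours that both fell in PBMC-hCG mice against control mice, and the 250 bases upstream of each are shown because both genes of the pair fell. The sequences are RefSeq's for GRCm38.p6, minus strand, and end at the base before the start of the RefSeq entry, which for Tmprss11a lies inside the span of the gene. Capitals mark AACNNGTT, the palindromic motif of grainyhead-type factors of covering epithelia, which was searched on both strands after the sequences had been seen. The first spans chr5:86468991-86469240 and the second chr5:86518601-86518850.
Tmprss11a: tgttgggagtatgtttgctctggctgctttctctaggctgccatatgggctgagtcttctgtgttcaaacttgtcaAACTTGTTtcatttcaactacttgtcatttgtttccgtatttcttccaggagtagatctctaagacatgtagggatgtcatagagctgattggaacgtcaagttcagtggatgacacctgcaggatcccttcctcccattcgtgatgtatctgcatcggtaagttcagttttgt
Tmprss11g: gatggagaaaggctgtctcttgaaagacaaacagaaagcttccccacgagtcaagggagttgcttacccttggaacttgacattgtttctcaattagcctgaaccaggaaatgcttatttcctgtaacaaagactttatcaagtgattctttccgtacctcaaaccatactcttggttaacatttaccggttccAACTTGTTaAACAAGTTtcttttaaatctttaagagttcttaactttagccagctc

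Tmprss11g held the motif at 2 positions and Tmprss11a at 1, and of the 65 promoter entries of 53 proteases, 3 held it, the last belonging to Tmprss11b. It was present in 3.64% of all 32851 promoter windows of 250 bases, and at 2 or more positions in 0.0791%. An estrogen response element (GGTCA and TGACC with 3 bases between) was in 0.07% of all 300-base promoter windows, and a hormone response element (GNACA and TGTNC with 3 bases between), the site of the progesterone, glucocorticoid and androgen receptors, in 0.475%. Searched on both strands, neither set of letters was in the window of any protease. These matches are descriptions of sequence; binding was not measured, and Prss22 had no entry.

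Tmprss11g was at 22.1, 7.02, 18.0, 22.9 and 8.48 TPM in control replicates 1 to 5, at 10.5, 14.7, 9.51, 10.3 and 9.23 TPM in IF mice, at 14.5, 7.86, 10.2, 4.68 and 9.56 TPM in PBMC mice and at 5.51, 4.55, 3.93, 5.58 and 5.82 TPM in PBMC-hCG mice. All 5 PBMC-hCG mice were below every control and every IF mouse, and control mice fell into 3 high and 2 low values. Of the listed gland markers, Spink3 had no entry under that symbol. The other 2, Foxa2 and Lif, summed to 37.6, 10.01, 27.2, 31.7 and 11.8 TPM in the same control mice. This gland sum and Tmprss11g were both low in replicates 2 and 5. Prss28 and Prss29, gland products left out by the rule, were instead highest in control replicate 2. In PBMC-hCG mice the gland sum was 7.82 to 9.96 TPM against 8.74 to 13.9 TPM in IF mice, and its part in the Tmprss11g values was not tested. Tmprss11a was at 7.18, 15.04, 6.71, 9.59 and 12.3 TPM in control mice, at 2.54, 5.15, 9.06, 4.03 and 6.62 TPM in IF mice, at 4.28, 3.01, 5.94, 4.80 and 6.37 TPM in PBMC mice and at 2.97, 3.06, 3.18, 6.35 and 2.82 TPM in PBMC-hCG mice. Control mice were above all PBMC and all PBMC-hCG mice, while IF replicate 3 lay inside the control range. The oviduct markers Ovgp1 and Foxj1 summed to 19.3 to 25.9 TPM in control mice and to 6.72 to 19.6, 5.94 to 9.02 and 5.35 to 14.8 TPM in IF, PBMC and PBMC-hCG mice. Of the markers, only Ovgp1 was called lower than in control mice, by -0.93, -1.69 and -1.64 in IF, PBMC and PBMC-hCG mice. Foxj1 differed by 0.25, -0.12 and 0.23 and was not called. The part of oviduct cells in the lower Tmprss11a values was not tested.

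Tmprss11d, the airway trypsin-like protease itself, was listed at 0 in control replicate 2 and in IF replicate 3 and therefore did not enter the fit. It was at 1.06, 0.888, 0.901 and 0.855 TPM in the other control mice and at 1.19, 7.25, 4.18 and 12.2 TPM in IF replicates 1, 2, 4 and 5. PBMC mice were at 1.10, 1.15, 1.32, 0.281 and 3.96 TPM, and PBMC-hCG mice at 0.350, 0.401, 0.146, 0.201 and 0.134 TPM. The IF mice thus held 3 high and 2 low values, and PBMC-hCG mice were the lowest group. These levels are given with no test. Tmprss11b, Tmprss11e and Tmprss11f stayed at or below 0.446, 0.313 and 0.0208 TPM in every mouse, and Tmprss11c was listed at 0.

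Of the Prss genes, Prss23 (chr7:89507783-89527187) was by far the most abundant. It encodes a secreted protease, known from ovary and from heart valve formation. Control mice were at 98.5, 91.0, 92.9, 88.5 and 65.9 TPM, IF mice at 201, 212, 215, 283 and 253 TPM, PBMC mice at 184, 153, 210, 186 and 248 TPM and PBMC-hCG mice at 237, 149, 144, 193 and 181 TPM. The lowest mouse with RU486 was above the highest control mouse, and the 3 groups with RU486 overlapped each other.

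Prss22 (chr17:23993534-24000722) encodes tryptase epsilon, an epithelial protease that can activate urokinase. It was at 2.94, 0.304, 3.88, 3.12 and 2.03 TPM in control mice and at 3.49, 13.0, 6.37, 13.99 and 22.0 TPM in IF mice. PBMC mice were at 3.83, 2.73, 6.08, 2.15 and 16.9 TPM and PBMC-hCG mice at 2.42, 0.872, 0.564, 1.06 and 0.603 TPM. The IF mice were widely spread, with 1 of them inside the control range, and every PBMC-hCG mouse was below every IF mouse. In PBMC mice, replicate 5 lay far above the other 4.

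Prss56, known for its part in growth of the eye, was high in the same IF mice. IF mice were at 1.34, 16.1, 0.404, 7.71 and 29.5 TPM, and PBMC mice at 0.276, 0.384, 0.985, 0.120 and 5.92 TPM. Among PBMC-hCG mice it was listed at 0 in 4 and was at 0.538 TPM in replicate 1. Control mice were at 0.903, 0, 0, 0.485 and 12.8 TPM, so the highest control mouse for Prss56, replicate 5, was not high for Prss22 (2.03 TPM) or Tmprss11d (0.855 TPM). Prss56, too, is given with no test. IF replicates 2, 4 and 5 and PBMC replicate 5 were the highest 4 of all 20 mice for both Prss22 and Tmprss11d.

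**Figure D2:**
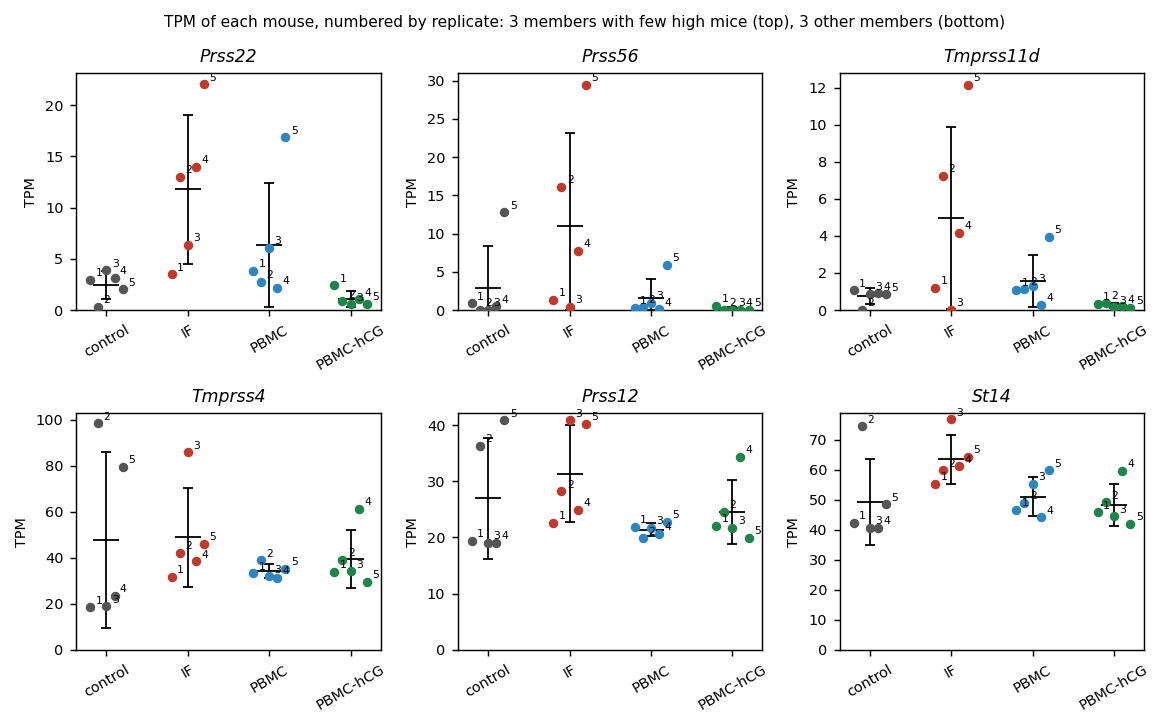
TPM of each mouse in the 4 groups (points, numbered by replicate), with the group mean and SD (bars, cut at 0), for Prss22, Prss56 and Tmprss11d (top) and Tmprss4, Prss12 and St14 (bottom). IF replicates 2, 4 and 5 and PBMC replicate 5 are high for Prss22 and Tmprss11d, whereas control replicate 2 and IF replicate 3 are high for Tmprss4 and St14.

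The squamous list of cervix and vagina, fixed to watch for other covering epithelium, moved with Prss22 between control and IF mice. Its 7 markers summed to 1.25 to 1.86 TPM in control mice, 3.73 to 8.80 TPM in IF mice, 3.54 to 6.79 TPM in PBMC mice and 4.56 to 7.10 TPM in PBMC-hCG mice. Only 2 of its markers, Dsg3 and Trp63, were above 0 in all 20 libraries, and the defining keratins Krt5 and Krt13 did not exceed 0.156 and 0.248 TPM in any mouse. PBMC-hCG mice thus had squamous sums in the range of the IF mice and the lowest Prss22 values. Of the other keratins on the list, Krt6a was at 0, 0.312, 0.0455, 0.132 and 1.81 TPM in IF mice, at 0.733 TPM in PBMC replicate 5 and at 0 in all PBMC-hCG mice. Krt4 was highest in IF replicate 5 (1.52 TPM) and PBMC replicate 5 (0.780 TPM). Over all 7 markers, these mice also had the highest sums of their groups, at 8.80 and 6.79 TPM. The sum was 4.43 TPM in IF replicate 4 and 5.13 TPM in IF replicate 1, where Prss22 was at 13.99 and 3.49 TPM. Krt14, also on the list, is given only within the sum. In PBMC-hCG against IF mice, where Prss22 fell, Trp63 rose by 1.04 (limma, adjusted p = 0.0338) and Dsg3 differed by -0.16 (adjusted p = 0.727). The part of squamous cells in the Prss22 values was not tested. The neutrophil markers summed to 24.9 TPM in IF replicate 5 but to 6.70 and 4.86 TPM in IF replicates 2 and 4, against 3.36 to 7.26 TPM in control mice. PBMC mice were at 15.4 to 25.8 TPM, with replicate 5 the lowest of them, and PBMC-hCG mice at 5.87 to 10.8 TPM. In PBMC against control mice S100a8 and S100a9 were called higher (1.64 and 2.72, limma, adjusted p = 0.0129 and 0.000408), and Mpo was not (-0.02). The part of neutrophils in the Prss22 values was not tested.

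Prss12, or neurotrypsin, which cuts agrin at synapses, was at 19.5, 36.3, 19.1, 19.003 and 40.9 TPM in control mice, at 22.6, 28.2, 40.8, 24.9 and 40.3 TPM in IF mice, at 21.9, 19.9, 21.7, 20.6 and 22.8 TPM in PBMC mice and at 22.1, 24.6, 21.8, 34.4 and 19.97 TPM in PBMC-hCG mice. Prss35, a relative of Prss23, was at 0.797, 3.57, 0.311, 0.405 and 5.62 TPM in control mice, at 1.73, 3.302, 4.13, 1.89 and 2.42 TPM in IF mice, at 0.979, 1.26, 1.69, 2.26 and 0.904 TPM in PBMC mice and at 1.12, 3.06, 2.19, 3.45 and 1.25 TPM in PBMC-hCG mice. Control replicates 2 and 5 were the high ones for both, and no difference of either passed the test. The polyserase genes Prss36 and Prss53 encode several protease domains in a single chain. Prss36 was at 5.23, 5.01, 5.74, 3.93 and 3.27 TPM in control mice, at 3.297, 4.13, 3.54, 3.33 and 2.15 TPM in IF mice, at 3.95, 3.38, 3.55, 4.302 and 2.29 TPM in PBMC mice and at 3.57, 3.95, 4.99, 4.33 and 4.64 TPM in PBMC-hCG mice. Its difference between IF and control mice was -0.48 (adjusted p = 0.0769), and it passed without control replicate 5 (-0.60, adjusted p = 0.0324), with quantile normalisation (adjusted p = 0.0418), with median ratio scaling (adjusted p = 0.0439) and with a replicate block (adjusted p = 0.0443). Prss53 (chr7:127885444-127892965) was at 5.61, 3.82, 5.62, 5.08 and 4.50 TPM in control mice, at 4.26, 2.62, 3.71, 3.69 and 2.26 TPM in IF mice, at 3.87, 2.51, 3.60, 2.76 and 3.03 TPM in PBMC mice and at 4.49, 4.35, 4.35, 2.86 and 3.31 TPM in PBMC-hCG mice. The control values were mostly the higher ones, with overlap in every comparison. Prss53 overlaps Zfp646 over 553 bases in the annotation, Tmprss4 overlaps BC049352 over 8432 bases, and Klk1, Prss12, St14, Tmprss11d and Tmprss13 overlap non-coding genes. The library kit kept strand, but how strand was used in counting is not given in the sources used here.

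Prss41 (chr17:23836785-23844219), a membrane-anchored protease known from the testis, was the weakest of the genes that changed. It was at 0.608, 1.37, 0.661, 1.23 and 0.819 TPM in control mice, at 0.303, 0.383, 0.985, 0.278 and 0.226 TPM in IF mice, at 0.420, 0.228, 0.448, 0.497 and 0.353 TPM in PBMC mice and at 0.388, 0.881, 0.161, 0.542 and 0.299 TPM in PBMC-hCG mice. PBMC mice were all below the control mice, and a single IF and a single PBMC-hCG mouse reached into the control range. Prss30, the distal intestinal serine protease, was at 0.354 to 1.03 TPM over all mice. The mast cell protease gene Prss34 stayed at or below 0.715 TPM, and the other Prss genes outside the fit, apart from Prss56, reached at most 1.23 TPM (Prss33) in any mouse.

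Kallikreins were scarce. Klk1, tissue kallikrein, which releases kinins from kininogen, was at 1.15, 2.38, 1.203, 0.839 and 1.34 TPM in control mice, at 1.59, 2.14, 2.11, 1.53 and 1.77 TPM in IF mice, at 1.77, 2.05, 0.344, 1.39 and 2.001 TPM in PBMC mice and at 2.56, 1.35, 2.44, 2.11 and 1.86 TPM in PBMC-hCG mice. Klk8, or neuropsin, known from brain and skin, was at 1.48, 2.37, 1.73, 2.07 and 1.61 TPM in control mice, at 1.43, 1.201, 2.63, 1.51 and 2.39 TPM in IF mice, at 2.51, 1.07, 2.18, 2.28 and 2.35 TPM in PBMC mice and at 2.22, 2.03, 1.602, 3.81 and 1.42 TPM in PBMC-hCG mice. All groups overlapped for both, and neither differed past the test in any comparison. The IF against control interval of the log2 difference was -0.28 to 1.17 for Klk1 and -0.62 to 0.51 for Klk8. Klk1 has near-identical copies in the mouse genome, so reads may be split among them. Klk9, Klk10, Klk11, Klk13 and Klk14 were above 0 in some libraries only, with at most 0.879 TPM (Klk11).

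The comparison of IF with control mice asks what RU486 changed. Prss22 rose by 2.29 ± 0.64 on the log2 scale, from a mean of 2.46 to 11.8 TPM (adjusted p = 0.0151), and Prss23 rose by 1.41 ± 0.15, from 87.4 to 233 TPM, with no overlap (adjusted p = 2.18e-06). Tmprss11a fell by 0.94 ± 0.31, from 10.2 to 5.48 TPM (adjusted p = 0.0387), Prss53 fell by 0.58 ± 0.18, from 4.93 to 3.31 TPM (adjusted p = 0.0280), and Prss41 fell by 1.04 ± 0.35, from 0.939 to 0.435 TPM (adjusted p = 0.0360). These values are from limma across all tested genes, with Benjamini-Hochberg adjustment. In the same comparison 6 of 9 epithelial markers were called higher and 1 lower (Elf3 at 1.29, Cldn3 at -0.95). Also called higher were 2 of 6 stromal markers (Dcn and Lum), both tested squamous markers and 1 of 3 tested neutrophil markers (S100a9 at 1.37). Called lower were 1 myometrial (Acta2), 1 gland (Foxa2) and 1 oviduct marker. The part of cell makeup in the protease values was not tested. Thus 2 of 18 proteases rose and 3 fell, beside 13.4% of all 18706 tested genes higher and 8.53% lower. The median difference was -0.04 over the proteases and 0.02 over all tested genes. The protease median had no stable sign, at 0.08 without control replicate 2, 0.15 with only genes of a mean of at least 1 TPM and -0.21 without IF replicate 3. Of all genes called, 61.1% were higher with TPM as deposited and 50.5% with libraries scaled by median ratios. Prss22 and Prss23 passed under every alternative. The Prss41 call was lost without control replicate 2, 4 or 5 or IF replicate 1, 2, 4 or 5 (adjusted p 0.0506 to 0.0954), that of Tmprss11a without control replicate 2, 4 or 5 or IF replicate 1, 2 or 4 (0.0616 to 0.108), and that of Prss53 without control replicate 1, 3 or 4 or IF replicate 2 or 5 (0.0568 to 0.0848). The 5 calls became 2 without control replicate 4 or IF replicate 2, and 3 without IF replicate 1, 4 or 5.

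**Figure D3:**
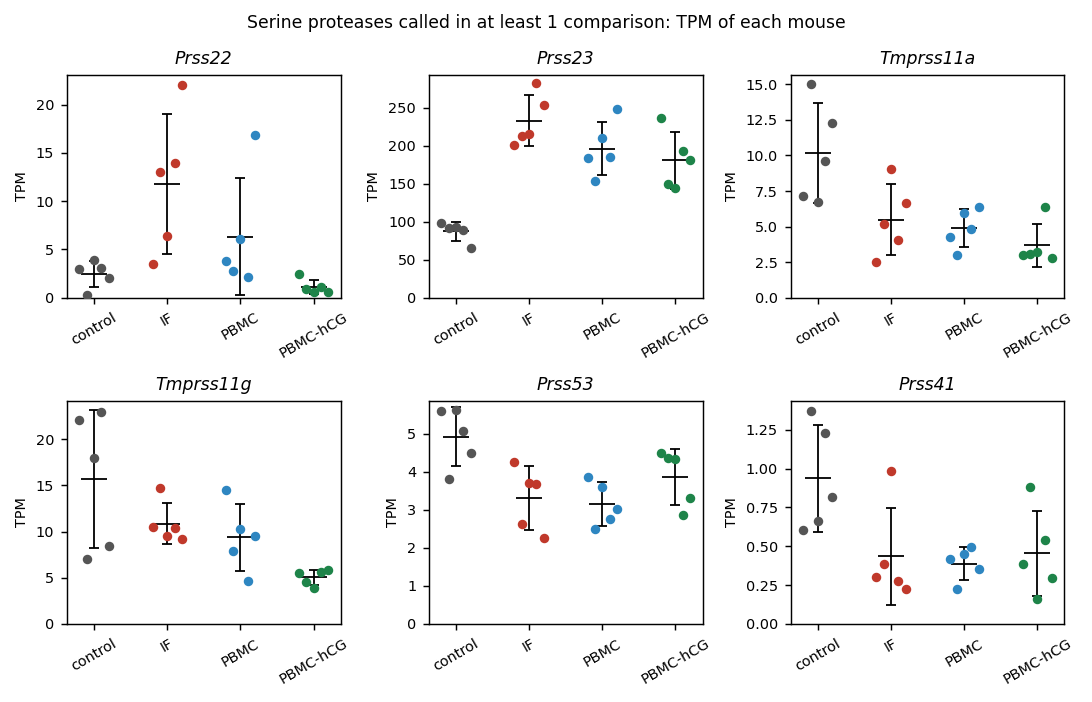
TPM of each mouse (points) with the group mean and SD (bars) for the 6 proteases called in at least 1 comparison. All mice with RU486 are above all control mice for Prss23, and all PBMC-hCG mice are below all IF mice for Prss22 and Tmprss11g.

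The comparison of PBMC-hCG with IF mice asks what the hCG-cultured cells changed in mice given RU486. Prss22 fell by 3.23 ± 0.64 on the log2 scale, from 11.8 ± 7.24 to 1.10 ± 0.762 TPM (adjusted p = 0.0258), and Tmprss11g fell by 1.08 ± 0.31, from 10.9 ± 2.21 to 5.08 ± 0.803 TPM (adjusted p = 0.0368). In neither did the groups overlap. Prss23, which had risen in IF mice, differed by -0.38 ± 0.15 (adjusted p = 0.0816), and Tmprss11a, Prss53 and Prss41, which had fallen there, differed by -0.51, 0.24 and 0.06 with adjusted p of 0.251, 0.368 and 0.924. The counts were 0 of 18 proteases higher and 2 lower, beside 7.61% of all tested genes higher and 5.99% lower, and the median difference was -0.08 over the proteases (-0.30 to 0.02 over the alternatives) and 0.05 over all tested genes. Those shares of all genes rested on single mice: the 2544 calls fell to 8, 14 and 0 when IF replicate 2, 4 or 5 was left out and to 1, 0, 18 and 34 when PBMC-hCG replicate 2, 3, 4 or 5 was left out. They rose to 5061 when IF replicate 3 and to 4166 when PBMC-hCG replicate 1 was left out. Of the markers, Krt8, Pdgfra and Trp63 were called higher. Of all genes called, 55.9% were higher as deposited and 44.6% with median ratio scaling. This comparison and that of IF with control share the 5 IF libraries. Both calls were lost without IF replicate 2, 4 or 5 or PBMC-hCG replicate 2, 3, 4 or 5, with adjusted p up to 0.0919 for Prss22 and up to 0.0999 for Tmprss11g, while the differences stayed between -3.59 and -2.94 and between -1.13 and -0.96. Without PBMC-hCG replicate 1, Prss23 also passed (-0.48, adjusted p = 0.0263), which made 3 calls.

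**Figure D4:**
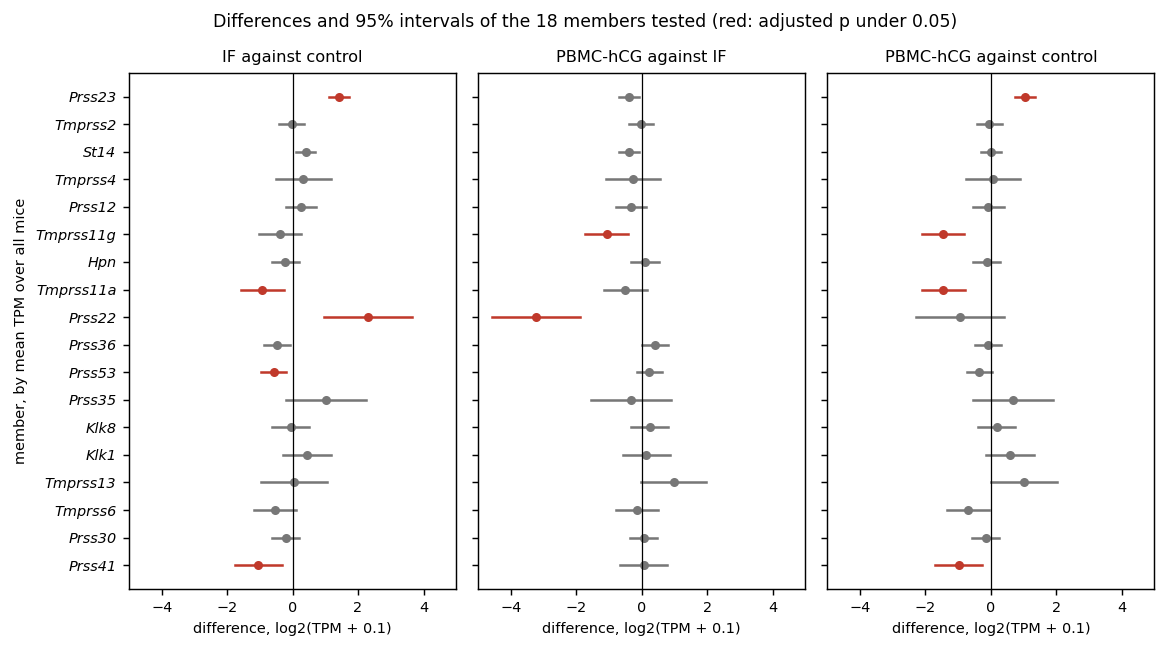
Differences of log2(TPM + 0.1) with 95% intervals (points and lines) for the 18 tested proteases in 3 comparisons; red marks an adjusted p under 0.05. Prss22 lies at 2.29 for IF against control and at -3.23 for PBMC-hCG against IF, and Prss23 stays above 0 for PBMC-hCG against control.

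Against control mice, PBMC-hCG mice had 1 protease higher and 3 lower of 18, beside 20.2% and 11.6% of all tested genes. Prss23 remained higher, by 1.04 ± 0.15 (181 against 87.4 TPM, adjusted p = 5.08e-05). Tmprss11g fell by 1.46 ± 0.31 (5.08 against 15.7 TPM, adjusted p = 0.00173) and Tmprss11a fell by 1.45 ± 0.31 (3.68 against 10.2 TPM, adjusted p = 0.00199), both with no overlap and under every alternative. Prss41 fell by 0.99 ± 0.35 (adjusted p = 0.0356), a call lost without control replicate 2, 4 or 5 or PBMC-hCG replicate 1, 3 or 5 (0.0553 to 0.110). Prss22 differed by -0.93 ± 0.64 (adjusted p = 0.285), with a 95% interval of -2.28 to 0.41. Of all genes called, 63.5% were higher as deposited and 48.5% with median ratio scaling. Of 44 tested markers, 12 were called higher and 10 lower, beside the same 20.2% and 11.6% of all tested genes. The lower ones included 4 of 5 myometrial markers, both gland markers (Foxa2 at -0.75, Lif at -1.95) and Ovgp1 (-1.64). The higher ones included 5 of 9 epithelial and both tested squamous markers. The part of cell makeup in these protease values was not tested.

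PBMC mice differed from control mice in 4 of 18 proteases, 1 higher and 3 lower, beside 12.8% of all tested genes higher and 6.7% lower. Prss23 rose by 1.16 ± 0.15 (196 against 87.4 TPM, adjusted p = 2.18e-05), and Tmprss11a, Prss41 and Prss53 fell by 1.02, 1.05 and 0.63 (adjusted p = 0.0276, 0.0378 and 0.0200). Of all genes called, 65.7% were higher as deposited and 52.5% with median ratio scaling. The Tmprss11a call was lost without control replicate 2 or 5 or PBMC replicate 1 or 2 (adjusted p 0.0555 to 0.0806), that of Prss41 without control replicate 2, 4 or 5 or PBMC replicate 1, 2, 3 or 5 (0.0536 to 0.0988), and that of Prss53 without control replicate 1 or 3 or PBMC replicate 2 or 4 (0.0502 to 0.0589); the 4 calls became 1 without PBMC replicate 2, and 2 without control replicate 5 or PBMC replicate 1. Tmprss11g, at -0.67 (adjusted p = 0.148), passed without control replicate 2 (-0.92, adjusted p = 0.0272).

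Between PBMC and IF mice, 0 of 18 proteases passed, beside 0% of all tested genes higher and 0% lower in limma with adjustment. At an unadjusted p under 0.05 there were 3 proteases and 1271 genes of all tested. The 3 were Prss30 (0.51), Prss12 (-0.51) and St14 (-0.31), with adjusted p of 0.701, 0.723 and 0.724, and for Prss30 the groups did not overlap (0.790 to 0.880 TPM against 0.455 to 0.693 TPM). Prss22 differed by -1.04 ± 0.64 (adjusted p = 0.781). Between PBMC-hCG and PBMC mice, which asks what hCG in the culture added, 0 of 18 proteases passed, beside 0.00535% of all tested genes higher and 0.00535% lower. At an unadjusted p under 0.05 there were 4 proteases and 3024 genes. The 4 were Prss22 (-2.19 ± 0.64, adjusted p = 0.264), Tmprss13 (1.11 ± 0.48, 0.289), Tmprss11g (-0.80 ± 0.31, 0.283) and Prss30 (-0.45 ± 0.19, 0.290), for which the groups did not overlap. The 95% interval for Prss22 was -3.53 to -0.85.

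The proteases outside the fit were not tested in it, since each held at least 1 value of 0. Among them, Prss57 was at a mean of 0.138, 0.357, 0.433 and 0.311 TPM and Prss33 at 0.748, 0.296, 0.379 and 0.303 TPM in control, IF, PBMC and PBMC-hCG mice, and Tmprss5 and Tmprss9 reached at most 0.273 and 0.294 TPM in any mouse. Other filters let some of these proteases into the fit and into the protease medians given for those filters. Their single-gene tests there are not reported, because a gene could enter through the group where it was high.

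The genes that control the proteases or are cut by them were taken from a list of 40 inhibitors, receptors and substrates, of which 22 entered the fit. In IF against control mice 7 of 22 rose and 2 fell, beside 13.4% of all tested genes higher and 8.53% lower, with a median difference of 0.21. The inhibitor Spint1 rose from 43.2 ± 17.7 TPM to 66.4 ± 8.95 TPM, by 0.69 (adjusted p = 0.00884), a call lost with only those 2 groups in the fit (adjusted p = 0.0669). Spint2 was at 269 ± 130 and 265 ± 58.7 TPM and differed by 0.05 (adjusted p = 0.889). Urokinase (Plau), the substrate of the Prss22 protease, was at 20.4, 24.2, 20.3, 24.1 and 33.8 TPM in control mice, at 56.6, 78.6, 55.5, 54.8 and 95.8 TPM in IF mice, at 29.2, 32.1, 50.1, 43.0 and 70.3 TPM in PBMC mice and at 38.9, 24.3, 24.3, 27.6 and 26.4 TPM in PBMC-hCG mice. All IF mice were above all control and all PBMC-hCG mice. Plau rose by 1.46 in IF against control mice (adjusted p = 0.000109) and fell by 1.25 in PBMC-hCG against IF mice (adjusted p = 0.0218), the latter lost without IF replicate 2 or 5 or PBMC-hCG replicate 2, 3 or 4 (adjusted p up to 0.0831).

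Tissue plasminogen activator (Plat) rose by 0.70 in IF mice (adjusted p = 0.00585). The bradykinin receptor Bdkrb2 rose by 1.69 in IF mice, from 32.2 to 96.2 TPM (adjusted p = 0.00236), and fell by 1.11 in PBMC-hCG against IF mice, to 44.9 TPM (adjusted p = 0.0483). Of the protease-activated receptors, F2rl1, which matriptase can cut, rose by 0.57 (adjusted p = 0.0269, lost without control replicate 1, 3 or 4 or IF replicate 5, up to 0.0833) and F2r, the thrombin receptor, fell by 0.92 in IF mice (adjusted p = 0.000672). The hepatocyte growth factor receptor Met rose by 0.46 (adjusted p = 0.000793), the matriptase substrate Epcam rose by 0.35 (adjusted p = 0.0174, but 0.0538 with quantile normalisation, 0.0509 with median ratio scaling and 0.0609 with only these groups fitted), and Mst1r, the receptor for macrophage-stimulating protein, fell by 0.44 (adjusted p = 0.0152).

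In PBMC-hCG against IF mice 2 of the 22 rose and 3 fell, beside 7.61% and 5.99% of all tested genes. The sodium channel subunit genes Scnn1b and Scnn1a rose by 1.12 (4.77 to 9.72 TPM, adjusted p = 0.0313) and 0.54 (adjusted p = 0.0484), and the urokinase receptor Plaur fell by 0.78 (adjusted p = 0.0325), beside Plau and Bdkrb2. None of these 5 calls held without IF replicate 5 (adjusted p 0.0831 to 0.156), IF replicate 2 or PBMC-hCG replicate 2, 3 or 4, and leaving out 1 mouse at a time ended between 5 and 8 of 10 fits of each. PBMC mice had 4 of 22 partner genes higher and 1 lower than control mice, beside 12.8% and 6.7% of all tested genes. PBMC-hCG mice had 3 higher and 1 lower, beside 20.2% and 11.6%, so of these counts against control mice only the 4 higher in PBMC mice lay above the share over all genes. In PBMC against IF mice the partner with the smallest p was Plau (-0.64, adjusted p = 0.667), and in PBMC-hCG against PBMC mice it was Bdkrb2 (-1.13, adjusted p = 0.268).

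**Figure D5:**
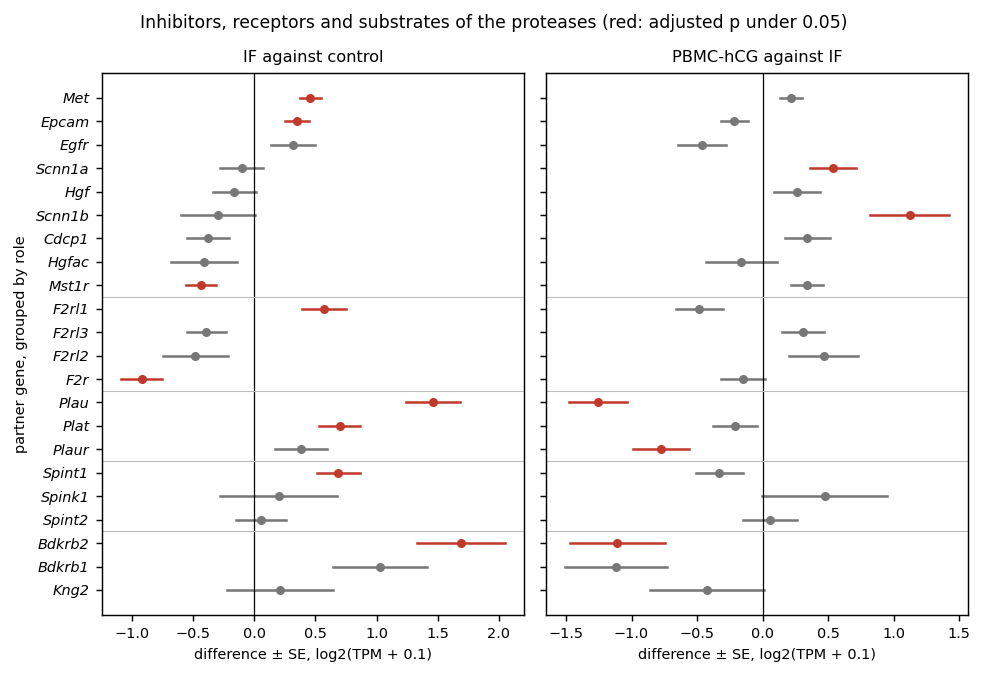
Differences of log2(TPM + 0.1) with their SE (points and lines) for 22 inhibitors, receptors and substrates, grouped by role, in 2 comparisons; red marks an adjusted p under 0.05. Plau and Bdkrb2 lie above 0 for IF against control (1.46 and 1.69) and below 0 for PBMC-hCG against IF (-1.25 and -1.11).

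Some mice held the highest value of their group for many of the proteases, as a count with no test and no share over all genes. Of the 19 proteases whose values are given for single mice, control replicate 2 was the highest control mouse for 9, IF replicate 3 the highest IF mouse for 10 and PBMC-hCG replicate 4 the highest PBMC-hCG mouse for 10. The same mice were the lowest of their groups for 5, 2 and 1. For 7 of them, namely Hpn, Klk8, St14, Tmprss11a, Tmprss13, Tmprss2 and Tmprss4, all of these mice were the highest of their groups. The implantation proteases Prss28 and Prss29, gland products of the same family that were left out by the rule, were highest in the same 3 mice, with Prss28 at 4739 TPM in control replicate 2 against 53.3 to 1206 TPM in the other control mice. Tmprss11d was listed at 0 in control replicate 2 and IF replicate 3. The epithelial marker sum was highest in control replicate 2 (1301 TPM) and IF replicate 3 (1363 TPM) of their groups but not in PBMC-hCG replicate 4 (1418 TPM, against 1521 TPM in replicate 2), and its part in these values was not tested. Prss8, or prostasin, the partner of matriptase, was at 43.0 ± 11.4, 39.0 ± 9.14, 40.2 ± 8.08 and 53.0 ± 7.89 TPM in control, IF, PBMC and PBMC-hCG mice.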

How the data were processed

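Poly(A) RNA of 20 uteri was sequenced from stranded libraries, and the authors deposited 1 table of TPM values per gene (per the submitters' processing notes, Trimmomatic, HISAT2, StringTie and the mm10 build; versions, depth and strand settings are not given in the sources used here). TPM holds no counts, so no count model was run. The group of each mouse was taken from the labels. Genes above 0 TPM in all 20 libraries (18706) were transformed to log2(TPM + 0.1), which understates changes of low genes, and tested with limma 3.58.1 (R 4.3.3, variance trend, all 4 groups in 1 fit), with Benjamini-Hochberg adjustment over all tested genes and a call at an adjusted p under 0.05. Exact permutation tests planned for proteases outside the fit are not reported, because a gene could enter them through the group where it was high. In data simulated for IF against control over 18706 genes, 194 of 200 changed genes were recovered, with 6 false calls. Recovery was counted over all 200 genes at once. Every simulated difference was larger than any called protease difference other than those of Prss22. Recovery of differences as small as those of Prss23, Tmprss11g, Tmprss11a, Prss41 or Prss53 was therefore not tested.

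The proteases and lists were chosen with earlier results of these data known. Values for single mice are given for proteases called in any comparison or with a group median of at least 1 TPM (19), and the others by range or count. Prss56 and Tmprss11d entered by that median. Partner genes were named if called, up to 10 by size, together with Spint1 and Spint2. Alternatives were other pseudocounts, filters, scalings, designs and call rules, a replicate block, and each mouse left out in turn. Sequences were RefSeq's (GRCm38.p6), read with Python 3.11.15 and pandas 2.3.3. Protein sequences were not used here.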

Additional observations from a re-analysis of the deposited data

Results flagged for a closer look

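Within each group of 5 mice, the gap from the highest or lowest value to its nearest neighbour was compared with the group's range. This was done for the 19 proteases given by single mice. Of 76 sets of values, 16 had a gap above 0.71 of the range, a limit that about 5% of independent, normally distributed sets pass. These TPM values are skewed and come from the same mice, and sets of Prss56 and Tmprss11d hold values of 0. The 16 sets are therefore only described and are not set against that share. Control replicate 2 held 4 of them, with Hpn at 18.8 TPM (others 9.04 to 11.5), St14 at 74.4 TPM (40.6 to 48.5), Tmprss2 at 110 TPM (62.3 to 68.3) and Tmprss11d at 0 (0.855 to 1.06 TPM). IF replicate 3 held 3, with Tmprss2 at 117 TPM (58.9 to 71.6), Tmprss4 at 85.9 TPM (31.8 to 46.1) and Prss41 at 0.985 TPM (0.226 to 0.383). PBMC replicate 5 held another 3, with Prss22 at 16.9 TPM (2.15 to 6.08), Prss56 at 5.92 TPM (0.120 to 0.985) and Tmprss11d at 3.96 TPM (0.281 to 1.32).

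The remaining values were spread over 5 mice. Prss56 was at 12.8 TPM in control replicate 5 (others 0 to 0.903). In PBMC-hCG replicate 1, Prss56 was at 0.538 TPM (others 0) and Prss22 at 2.42 TPM (0.564 to 1.06). Tmprss11a was at 6.35 TPM in PBMC-hCG replicate 4 (2.82 to 3.18), Tmprss11g at 14.7 TPM in IF replicate 2 (9.23 to 10.5), and Klk8 at 1.07 TPM in PBMC replicate 2 (2.18 to 2.51).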

How the results depend on the processing

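Alternatives were computed for 53 single-gene results, proteases with an unadjusted p under 0.05 and called partner genes, and none of these changed direction. Of 795 alternative values for the 38 single-gene calls, 639 stayed past the threshold and 156 did not. The 5 proteases called for IF against control became 2 with only these groups in the fit and 3 with a rule of at least 2-fold and an unadjusted p under 0.05, and 2 to 5 with 1 mouse left out. For PBMC-hCG against PBMC, 0 became 2 (Prss22 and Tmprss13) under the fold rule. With 1 mouse left out, the 2 calls for PBMC-hCG against IF became 0 to 3, the 4 for PBMC against control 1 to 3 and the 4 for PBMC-hCG against control 3 to 5. The cause was not tested. Over all genes, 2544 calls for PBMC-hCG against IF became 1536 with genes above 0 in at least 5 libraries, 812 with no filter and 432 under the fold rule, and 4104 for IF against control became 2473 with only these groups fitted and 754 under the fold rule. The fold rule gave 625 against 3653 genes for PBMC against control, 887 against 5941 for PBMC-hCG against control, 167 against 2 for PBMC-hCG against PBMC and 82 against 0 for PBMC against IF. Without 1 mouse, the calls over all genes for PBMC-hCG against IF ranged from 0 to 5061, and those for PBMC-hCG against PBMC became 7 without PBMC-hCG replicate 1. With genes above 0 in at least 5 libraries or no filter, the IF against control calls of Prss41 (adjusted p = 0.0539 and 0.0688) and Tmprss11a (0.0509 and 0.0630) were lost, as was that of Tmprss11g for PBMC-hCG against IF with no filter (0.0616).

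Replicate numbers did not pair the mice in general. Of 30 correlations of same-numbered mice, 8 were over 0.1 (-0.247 to 0.457), and 7 of 30 were the best for their number. The highest were those of replicate 5 between control and IF (0.396), control and PBMC (0.272) and IF and PBMC mice (0.457), each the best for its number. With PBMC-hCG replicate 5 the same mice correlated at -0.0591, -0.0896 and -0.0825. What the replicate 5 mice share was not tested. A replicate block gave 6, 0, 2, 0, 3 and 4 protease calls for IF against control, PBMC against IF, PBMC-hCG against IF, PBMC-hCG against PBMC, PBMC against control and PBMC-hCG against control, and ended 2 of 38 single-gene calls. Unknown depth leaves the counting error of genes near 1 TPM, such as Prss41, unmeasured.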
